A study of Sus scrofa with 2 samples.

Results

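The 10 oligos described here are custom probes whose mature sequences came from small RNAs of the pig pituitary. The array holds 355 probes for porcine miRNAs, 255 of them from miRBase and 100 added ones with the prefix Y-, among which the 10 were found. The probe annotation gives a sequence and a source for 99 of these 100, and 11 of the 99 are assigned to pig pituitary. Members had to have an A plus G share under 80% of the mature sequence. This left out Y-71, whose share was exactly 80%, while Y-65, the most purine-rich member, had 76.2%. The rule also set aside 6 other added probes (Y-1, Y-14, Y-47, Y-76, Y-77 and Y-90), none of which came from pituitary. The rule itself names no signal, but it left out Y-71, which was brighter than all 10 members.

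MiRNAs are short RNAs of about the length of these probes that pair with messenger RNAs, mainly through bases 2 to 8, the seed, and lower the output of the paired messages. A mature miRNA is cut from one arm of a hairpin precursor, and the other arm can give a second mature product. Candidate miRNAs found by sequencing small RNAs in a tissue can also be fragments of other transcripts.

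The array was hybridized with anterior pituitary RNA of Bama minipigs (YB), a small Chinese breed, and of Landrace pigs (YC), a large commercial breed. Healthy female piglets 20 days old were used, and the glands of 3 piglets per breed made up 1 pool, which was read on 1 array. The deposited values are background-subtracted and LOWESS-normalized signal intensities on a linear scale, and they summed to 695596 for the Bama pool and 671754 for the Landrace pool. With 1 pool and 1 array per breed the spread between pigs is unknown, so no test between the breeds was made, and the number of arrays limits the precision of every value. The deposited table carries no background, detection call or spot spread, and those the study lists elsewhere were not used here. A ratio was given only where both signals were 100 or more, and weaker signals were reported as values. Probes bind with unequal strength, so ranks and comparisons between probes refer to brightness and not to amounts of RNA.

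The labelled tissue was checked against miRNAs known from it. In the Bama and Landrace pools, in this order, ssc-miR-7, an endocrine miRNA, ranked first with signals of 35031 and 42831, and Y-90 (miR-375), another, ranked second with 34707 and 32765. The epithelial miRNAs Y-77 (miR-200c) and Y-76 (miR-200a) had 16160 and 16565, and 7906 and 8688. Signals of miRNAs of other tissues were far weaker but not all alike in the breeds. For striated muscle, ssc-miR-1 had 426 in the Bama pool and 25.1 in the Landrace pool, ssc-miR-133a-3p had 370.4 and 79.2, and ssc-miR-206 had 117 and 278. The neuronal ssc-miR-124a had 66.3 and 27.0, and the liver miRNA ssc-miR-122 had 40.3 and 6.56. The 3 muscle miRNAs summed to 914 in the Bama pool and 383 in the Landrace pool, with ssc-miR-1 the brightest in the former and ssc-miR-206 in the latter, and none of the markers was listed at 0. These differences lie between the same 2 pools as the values below, and their part in those values was not tested.

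Of the 10 members, 2 gave a signal of 100 or more on both arrays, Y-62 and Y-67, and the other 8 stayed under 100 on both. Over all 355 probes, 169 (47.6%) reached 100 on both arrays and 185 (52.1%) on either array. Y-62 and Y-67 together held 75.9% of the members' summed signal in the Bama pool and 87.3% in the Landrace pool. The members' median signal was 45.1 in the Bama pool and 32.0 in the Landrace pool, against 114 and 95.1 over all 355 probes. None of the 10 had an average signal above 1000, a level that 105 of the 355 probes passed. The 10 together made up 0.180% of the array's summed signal in the Bama pool and 0.224% in the Landrace pool.

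The share of bright probes differed between the sets of added probes. The limit of 100 was reached on either array by 2 of the 10 pituitary probes (20%), by 7 of 40 probes (17.5%) from pig fat or muscle and by 10 of 30 (33.3%) from other species, after the same rule on purines and the same exclusions. On both arrays it was reached by 2 (20%), 4 (10%) and 10 (33.3%) of them, respectively. The 20 added probes outside these sets, most of them set aside by the purine rule or by name, were brighter as a set, with 15 (75%) at the limit on either array and 10 averaging above 1000. Among the 255 miRBase probes 151 (59.2%) reached the limit on either array. With Y-71 counted in, 3 of the 11 pituitary probes did. The members' median signals of 45.1 and 32.0 in the Bama and Landrace pools stood beside 8.82 and 6.55 for fat or muscle, and 26.4 and 55.8 for other species. No test of these differences was made.

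The mature sequences are printed 5′ to 3′ in the order of the average signal, with the seed in capitals, because the unnamed members are identified here by their sequences. The positions are those of the precursors in the probe annotation, which does not name a genome build.

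Y-62 (miR-660, chrX:48640816-48640895, plus strand): uACCCAUUgcauaucggaguug

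Y-67 (unnamed, on an unplaced scaffold): uGGGCUGGguuugaagaaggggc

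Y-63 (miR-760, chr4:135067638-135067720, minus strand): cGGCUCUGggucuguggggag

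Y-69 (unnamed, chr13:213727176-213727252, minus strand): cGGGGGAAaggcgcgugcccgu

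Y-68 (unnamed, chr1:250901275-250901360, minus strand): aCAGCUCCuggacuccucuauga

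Y-66 (unnamed, chr4:56174500-56174578, plus strand): uUCCUGAGucggacugggcugc

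Y-65 (ssc-miR-202-3p, chr14:153169587-153169662, minus strand): aGAGGUGUaggcaugggaaac

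Y-70 (unnamed, position in doubt as described below): aCACAAAAugccaggcaucagg

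Y-72 (unnamed, chrX:135417136-135417216, plus strand): cUAAAUCAuaggaugguuguga

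Y-73 (unnamed, chr5:23123405-23123480, plus strand): uCCAGGAUuuggcaacguucau

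The members were 21 to 23 bases long, and 3 of them carry the name of a known miRNA. All 10 seeds differed from each other, and none of the 10 was the seed of any other probe on the array. A U as first base, common in miRNAs, was present in 4 of the 10 (40.0%), against 148 of 355 probes (41.7%). The G plus C share ran from 36.4% in Y-72 to 77.3% in Y-69, with a median of 52.3%, against 50% over all probes.

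Y-62 (miR-660) was the brightest member on both arrays. Its signal was 628 in the Bama pool and 1153 in the Landrace pool. It was thus 1.84-fold higher in Landrace pigs (log2 ratio of Bama minipigs over Landrace pigs -0.88), short of the 2-fold limit. In the Landrace pool it was the 93rd brightest of 355 probes, and in the Bama pool the 123rd. The log2 ratio was the 8th lowest among the 169 probes with 100 or more on both arrays. Of these, 64 had an average signal of up to 1000, and the median size of their log2 ratios, regardless of sign, was 0.41. The log2 ratio of Y-62 passed -1 under quantile normalization (-1.01) and when the arrays were set to a common 75th percentile (-1.07). It was -0.99 with median scaling, -0.83 with an offset of 50 and -0.73 with cyclic loess.

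In mammals miR-660 belongs to a group of miRNAs encoded together on the X chromosome near the chloride channel gene CLCN5. In RefSeq (assembly Sscrofa11.1) MIR532, MIR500 and MIR362 follow each other on chromosome X between USP27X and CLCN5, and the annotated precursor of Y-62 also lies on X. The array holds 4 other probes of this group, and all 4 had signals above 100 in both breeds. The signals of ssc-miR-532-5p were 652 in the Bama pool and 844 in the Landrace pool (log2 ratio -0.37). Those of ssc-miR-500 were 149 and 195 (log2 ratio -0.39), and those of ssc-miR-362 were 201 and 230.2 (log2 ratio -0.19). These 3 were lower in Bama minipigs, as Y-62 was, each by a smaller ratio. The size of each was also under 0.41, the median given above for the 64 probes of like signal. All 3 kept that direction under quantile normalization and cyclic loess. Median scaling and the common 75th percentile lower every log2 ratio by the same amount, so they could not turn a negative one. The fourth, ssc-miR-532-3p, went the other way with 347 and 184 (log2 ratio 0.92). It comes from the same hairpin as ssc-miR-532-5p, so the arms of one precursor differed in direction on these arrays, whichever scaling was used. Of the 77 probes on the array averaging above 100 and up to 1000, 38 were higher in Bama minipigs. No shared direction of the group is therefore read from its probes. The 5 probes have 5 different seeds, as their sequences show.

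ssc-miR-532-5p: cAUGCCUUgaguguaggaccgu

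ssc-miR-532-3p: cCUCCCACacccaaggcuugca

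ssc-miR-362: aAUCCUUGgaaccuaggugugagug

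ssc-miR-500: aUGCACCUgggcaaggauucu

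Y-63 carries the name miR-760 and was the brightest of the 8 weak members. Its signals were 98.2 in the Bama pool and 79.0 in the Landrace pool, just under the limit of 100, so no ratio is given. In the Bama pool 171 of the 355 probes were weaker, and in the Landrace pool 167 were, which places it close to the middle of both. It is also one of the most G plus C-rich members (71.4%), next to Y-69. Its annotated hairpin holds the mature sequence in the 3′ arm at bases 52 to 72 of 83.

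Y-65 (ssc-miR-202-3p) is the third member with a name. miR-202 is best known as a miRNA of the gonads. The signals of Y-65 were 15.4 in the Bama pool and 5.27 in the Landrace pool, both far under the limit. The array also holds ssc-miR-202, whose sequence lies in the 5′ arm of the same precursor, at bases 11 to 31 of 76, with Y-65 in the 3′ arm at bases 47 to 67. In the predicted fold of that precursor 18 base pairs joined the 5′ and 3′ products. The signals of ssc-miR-202 were 11.3 in the Bama pool and 51.3 in the Landrace pool. Both arms of the miR-202 hairpin were thus under 100 in both breeds. RefSeq also lists MIR202 on chromosome 14, between UTF1 and ADAM8.

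The seed of Y-65 begins like that of the let-7 family, a set of abundant and widely conserved miRNAs. Bases 2 to 6 are the same in Y-65 and in the 7 let-7 and miR-98 probes, and both of the other seed bases differ, as a comparison with ssc-let-7a shows.

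Y-65: aGAGGUGUaggcaugggaaac

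ssc-let-7a: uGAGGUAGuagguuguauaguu

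Those 7 probes had signals of 3693 to 14980 in the Bama pool and 1042 to 14582 in the Landrace pool. Y-65 thus shared the start of its seed with bright probes. Probes bind with unequal strength, so the size of the difference in signal is not interpreted.

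Among the 7 unnamed members only Y-67 gave a signal of 100 or more on both arrays. Its signal was 324 in the Bama pool and 162 in the Landrace pool, for a log2 ratio of 1.01. With signals under 100 set to 100, it was the only one of the 10 members that differed by 2-fold or more. Over all 355 probes 28 did so (7.89%), 23 of them higher in Bama minipigs (6.48%) and 5 lower, so 1 of 10 is close to the background. With no minimum, 6 of the 10 members and 34.6% of all probes differed by 2-fold or more. The further members were Y-65, Y-69, Y-70, Y-72 and Y-73, each with both signals under 100, where no ratio is given. With a common 75th percentile the split was 20 higher and 9 lower. Among the 169 probes with 100 or more on both arrays, 21 passed the limit (12.4%), and of the 2 members among them 1 did, too few for a share. Y-67 lay on the limit itself. Its log2 ratio was under 1 with median scaling (0.89), quantile normalization (0.86), a common 75th percentile (0.82) or an offset of 50 on both signals (0.82), and 1.01 with cyclic loess. Among the 169 probes it had the 17th highest log2 ratio.

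Y-69 came next among the unnamed members, with 88.2 in the Bama pool and 35.7 in the Landrace pool, and the gap of 52.5 was the largest among the 8 weak members. Over the 170 probes under 100 on both arrays, the median gap between the arrays was 4.46 signal units, and the 90th percentile of the gaps was 34.3. Most of these probes were dimmer than Y-69, which averaged 61.9, as 25 averaged up to 1 and 91 above 1 and up to 20. The gaps are therefore no measure of how unusual Y-69 was among probes of its brightness. Y-69 is the most G plus C-rich member. Y-68 had signals of 48.3 and 36.8, and Y-66 had 41.9 and 28.2, each a little higher in Bama minipigs. All 4 members with an average signal above 20 and up to 100 (Y-63, Y-66, Y-68 and Y-69) had the higher signal in Bama minipigs, as did 38 of the 57 probes of that class. Under quantile normalization Y-68 turned, and the other 3 kept that direction.

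Y-70, Y-72 and Y-73 were the weakest of the unnamed members. For Y-70 the signals were 10.2 in the Bama pool and 3.93 in the Landrace pool. Y-72 had 0.0310 and 1.57, and Y-73 had 0.0333 and 1.21. Both Y-72 and Y-73 were thus near 0 in both breeds, although their sequences were taken from pituitary small RNA. No order is read from signals this low.

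With an offset of 50 added to every signal, which keeps weak probes in the summary, the median log2 difference of the 10 members was 0.19, against 0.0017 over all probes, 0.024 over the probes from fat or muscle and -0.036 over those from other species. It was 0.75 over the 20 added probes outside these sets. The members' median was 0.070 under quantile normalization and 0.34 with an offset of 16. As deposited it lay between the values of Y-68 (0.18) and Y-63 (0.20), both under 100 on both arrays. Of the 57 probes averaging above 20 and up to 100, as these 2 did, 38 were higher in Bama minipigs. The sets were not compared at like brightness, so the median is not read as particular to the members.

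The annotation gives each member a precursor of 76 to 89 bases. In 9 of the 10 the mature sequence was found in it once, with 4 in the 5′ arm and 5 in the 3′ arm. In the predicted folds, 68.2% to 86.4% of the mature bases were paired, with a median of 81.0%. Among the 58 precursors of the other added probes, the mature sequence was found in 47, with a median of 78.3% paired. The best paired members were Y-69 and Y-72, each with 19 of 22 mature bases paired, and the least paired was Y-73 with 15 of 22. Y-62 and Y-67, the 2 brightest, had 16 of 22 and 19 of 23 paired. Whether pairing goes with brightness was not tested. The predicted free energies ran from -42.2 kcal/mol in Y-65 to -24.9 kcal/mol in Y-73.

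Y-70 was the exception. Neither its mature sequence nor the reverse complement was found in the precursor listed for it. The same precursor and the same position are listed for Y-7, a probe from pig fat or muscle, whose sequence does occur there. The position listed for Y-70 is therefore not given here. The signals of Y-7 were 1.19 in the Bama pool and 8.21 in the Landrace pool.

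Y-7: aCUCUGUGguucucucguggg

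Shared stretches with other probes were also measured, since a probe can bind a related RNA. The longest run of bases that a member had in common with any other probe was 7 to 10 bases. How long a run unrelated probes of this length share was not measured, so no run is taken as a sign of relatedness. Y-68 shared 10 bases with ssc-miR-28-3p, given in capitals.

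Y-68: acAGCUCCUGGAcuccucuauga

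ssc-miR-28-3p: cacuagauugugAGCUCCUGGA

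The signals of ssc-miR-28-3p were 262 in the Bama pool and 294 in the Landrace pool, against 48.3 and 36.8 for Y-68. Y-67 shared 9 bases with ssc-miR-221, a far brighter miRNA with 5432 and 3810, the capitals marking the run.

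Y-67: uggGCUGGGUUUgaagaaggggc

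ssc-miR-221: agcuacauugucuGCUGGGUUU

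Y-73 shared its first 8 bases with ssc-miR-26a, whose signals were 25545 and 25126.

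Y-73: UCCAGGAUuuggcaacguucau

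ssc-miR-26a: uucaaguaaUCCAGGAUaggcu

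Y-73 itself had 0.0333 and 1.21. Y-63, the brightest of the weak members with 98.2 and 79.0, shared 8 bases with ssc-miR-222, which had 4902 and 4807, and also with dim probes, ssc-miR-1306-3p (92.5 and 51.0), ssc-miR-769-5p (17.9 and 12.1) and ssc-miR-615 (2.57 and 20.3). The run of Y-73 was also present in the dim Y-94, with 1.47 and 3.98. Runs of 9 bases were shared by Y-65 with ssc-miR-4331 (307 and 94.2) and by Y-70 with ssc-miR-1271 (8.16 and 9.17). Y-72 shared 7 bases with ssc-miR-369 (1505 and 945), ssc-miR-376a (970 and 342) and ssc-miR-34a (199 and 253). It also shared 7 with Y-14 (68.7 and 15.8) and Y-47 (68.3 and 27.0). Runs of 8 bases were shared by Y-69 with Y-54 (102 and 97.1) and by Y-66 with Y-21 (18.7 and 12.1). Bright and dim probes thus both stood among those sharing a run with a weak member. Y-62, the brightest member, shared 7 bases with ssc-miR-153 (180 and 98.0) and 7 with ssc-miR-202 (11.3 and 51.3), both dimmer than Y-62 itself. What such shared runs contribute to the signals of the members was not tested.

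Y-71, the pituitary probe left out for its purine share, was far brighter than every member, with 6152 in the Bama pool and 3687 in the Landrace pool (log2 ratio 0.74). It ranked 37th and 55th of the 355 probes, respectively. Its sequence follows, with the seed in capitals, beside that of Y-65, the member nearest to the limit, which had 15.4 and 5.27.

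Y-71 (chr7:115502705-115502794, minus strand): aGGUAGAAuaagugggaggc

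Y-65: aGAGGUGUaggcaugggaaac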

How the data were processed

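Small RNA of each pool was tailed, hybridized to a custom microfluidic array and stained with Cy5. The authors digitized the images, removed background, applied LOWESS normalization and took the mean of repeat spots, and these intensities were deposited as 1 linear value per probe and array. How signals near or under background came out above 0 is not given in the sources used here, so weak signals may be shaped by that step. Probe sequences, sources and positions came from the probe annotation, from which no measured value was used.

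Ratios are Bama minipigs over Landrace pigs without further scaling. For calls of 2-fold or more, a signal under 100 was set to 100. Alternatives were median scaling over probes reaching 100 on both arrays, a common 75th percentile or quantile normalization over all probes, cyclic loess (3 iterations) over probes averaging 100 or more, offsets of 16, 50 and 100, minimum signals of 0, 50 and 200, and the inclusion of Y-71. The scalings were tested on simulated data, in which only bright probes were changed, each by more than 2-fold. That test does not cover weak signals such as those of most members. Precursors were folded with RNAfold 2.7.2. Named probes are all members, Y-71, the miR-660 cluster, probes within a member's precursor or with its seed, the let-7 and miR-98 probes and the tissue markers. Probes sharing a run of bases with a member were chosen after their values were seen. The members and lists were chosen with earlier results of these data known. Python 3.11.15, numpy 2.4.6, pandas 2.3.3, R 4.3.3 and limma 3.58.1 were used.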

Additional observations from a re-analysis of the deposited data

How the results depend on the processing

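Of 43 values recomputed under an alternative, 28 kept their side of the 2-fold limit and stayed within a set range. The range was a factor of 1.5 for counts and medians, and 0.41 for the log2 ratios of Y-62 and Y-67. The 0.41 is the median size of the log2 ratios of the 64 probes with 100 or more on both arrays and an average of up to 1000. These 28 include 3 medians that cyclic loess, fitted on brighter probes, could not move. They also include 2 counts in which another member took the place of Y-67. The log2 ratio of Y-67, 1.01, was 0.89 with median scaling, 0.82 with a common 75th percentile, 0.86 under quantile normalization and 0.82 with an offset of 50. That of Y-62, -0.88, was -1.07 with the common 75th percentile and -1.01 under quantile normalization. Thus the 1 member at 2-fold or more was Y-67, higher in Bama minipigs, as deposited, but Y-62, higher in Landrace pigs, under those 2 scalings. The count was 0 with median scaling, with the offset of 50 and with a minimum signal of 200, which the Landrace signal of Y-67 does not reach. With no minimum it was 6. A minimum of 50 raised the number of members reaching it on either array from 2 to 4. The median log2 difference of the members, 0.19, was 0.11 with the common 75th percentile, 0.070 under quantile normalization, 0.34 with an offset of 16 and 0.12 with an offset of 100. Median scaling shifted the median log2 ratio of the probes at 100 or more on both arrays by -0.11, the common 75th percentile by -0.19 and quantile normalization by -0.078. Quantile normalization gives each signal a value set by its rank on its array, so it moved single probes by unequal amounts, some of them further. The share of higher probes among all 2-fold calls, 82.1% as deposited, was 72.4%, 69.0% and 71.4% under these 3 scalings. No paired analysis was possible because each breed was 1 pool on 1 array. Spot and background data were not used here, so signal over background is not given for signals under 100.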
